A study of Mus musculus with 15 samples.

Results

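The wide peaks of *116HG* chromatin isolation by RNA purification with sequencing (ChIRP-seq) in wild-type (WT) mouse brain were described here. They are the peaks of WT *116HG* replicate 1 that spanned at least 1000 bp, lay outside a window of chromosome 7 that reaches from *Ube3a* to *Snrpn* and holds *Snord115* and *Snord116*, and overlapped no peak of replicate 2. The rule selected 1255 of the 78033 peaks in the list, or 1.61%, and these held 12.3% of the width covered by all peaks of the list. The members were chosen by their width in replicate 1 and by the absence of replicate 2, so these and the measures that come with them are given as a description. The 5 narrowest members spanned 1000 to 1003 bp, with folds over input of 59.1 to 174. The 5 widest peaks just under the limit spanned 997 to 999 bp, with folds of 83.0 to 386.

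ChIRP-seq peak lists were available for 5 libraries of adult brain, each from 1 hemisphere according to the methods: *116HG* oligos on WT C57BL/6J brain in replicates 1 and 2, non-specific control (NSC) oligos on WT brain, and each oligo set once on B6(Cg)-Snord116tm1.1Uta/J brain (*Snord116del* (+/-)), which carries the deletion on the paternal chromosome. RNA-seq was performed on the cortex of adult males of the same strains at Zt +6, in the light phase, and at Zt +16, in the dark phase. The RNA-seq groups were 3 WT and 2 *Snord116del* mice at Zt +6 and 2 mice of each genotype at Zt +16. The deposited table gives 1 FPKM value for each gene and group, so the spread between mice cannot be seen and no test between groups was possible. The chromosome 7 window held 362 peaks in replicate 1 and 288 in replicate 2, but 8, 1 and 0 in the WT NSC, *Snord116del* *116HG* and *Snord116del* NSC lists, whereas *Snord116* itself was listed at 0 FPKM in all 4 RNA-seq groups.

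*116HG* is the spliced host transcript of the *Snord116* small nucleolar RNAs. It is expressed from the paternal chromosome in neurons and lies within the locus lost in Prader–Willi syndrome. In ChIRP, antisense oligos with a biotin tag retrieve an RNA from cross-linked chromatin, and the DNA that comes with it is sequenced. A messenger RNA ends in a last exon that holds the 3′ untranslated region (UTR), usually the longest exon of a gene, and internal exons are bounded by an intron that ends in AG before the exon and begins with GT after it.

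Edges of exons under some wide peaks are shown because these peaks began or ended near them. The exons are the last exon of *Meg3* and internal exons under 4 other members, taken among the widest that met the following conditions. Both peak edges lay within 120 bp of the exon edges. The exon had coding sequence at both ends and no annotated UTR within the printed bases. Peaks wider than that of *Chgb* on internal exons of *Mtap1b*, *Srrm2*, *Tcf20*, *Mtap2*, *Cobl* and *Sipa1l1* also met the distance. These exons had a UTR of some transcript within those bases and are not printed. Each sequence has 60 bases on either side of the edge, 5′ to 3′ on the gene strand from the mm9 assembly (NCBIM37). Capitals mark the exon and lower case marks the intron.
Meg3 5′ edge, chr12:110796790-110796909 (+ strand): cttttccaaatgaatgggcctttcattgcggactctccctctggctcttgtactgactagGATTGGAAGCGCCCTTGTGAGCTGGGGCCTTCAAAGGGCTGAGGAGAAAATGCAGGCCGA
Ank2 5′ edge, chr3:126650666-126650785 (- strand): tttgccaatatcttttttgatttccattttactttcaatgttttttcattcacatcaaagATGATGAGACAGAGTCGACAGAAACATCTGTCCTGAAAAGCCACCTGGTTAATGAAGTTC
Ank2 3′ edge, chr3:126644468-126644587 (- strand): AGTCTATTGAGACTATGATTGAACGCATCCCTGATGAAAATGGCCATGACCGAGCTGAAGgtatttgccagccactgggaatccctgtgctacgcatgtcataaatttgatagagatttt
Rtn4 5′ edge, chr11:29606350-29606469 (+ strand): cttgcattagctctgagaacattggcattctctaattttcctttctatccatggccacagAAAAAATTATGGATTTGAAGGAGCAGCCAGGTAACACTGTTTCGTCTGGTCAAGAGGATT
Rtn4 3′ edge, chr11:29608711-29608830 (+ strand): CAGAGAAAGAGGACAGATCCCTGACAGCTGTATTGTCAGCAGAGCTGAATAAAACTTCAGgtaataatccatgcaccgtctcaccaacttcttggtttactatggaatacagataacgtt
Bsn 5′ edge, chr9:108010458-108010577 (- strand): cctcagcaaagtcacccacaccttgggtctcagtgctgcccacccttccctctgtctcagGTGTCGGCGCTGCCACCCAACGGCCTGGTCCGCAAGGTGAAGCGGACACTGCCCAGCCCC
Bsn 3′ edge, chr9:108008381-108008500 (- strand): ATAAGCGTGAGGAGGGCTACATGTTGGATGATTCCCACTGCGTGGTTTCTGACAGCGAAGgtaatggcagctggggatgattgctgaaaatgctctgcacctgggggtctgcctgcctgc
Chgb 5′ edge, chr2:132618006-132618125 (+ strand): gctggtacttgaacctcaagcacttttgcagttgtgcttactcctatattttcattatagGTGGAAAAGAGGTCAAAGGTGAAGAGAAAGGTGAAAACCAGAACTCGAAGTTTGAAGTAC
Chgb 3′ edge, chr2:132619772-132619891 (+ strand): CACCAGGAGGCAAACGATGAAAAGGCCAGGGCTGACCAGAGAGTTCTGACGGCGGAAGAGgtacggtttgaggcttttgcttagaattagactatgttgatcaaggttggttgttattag
In all 9 sequences the intron had AG before the exon or GT after it. The *Ank2* peak (6267 bp) began 55 bp before its 6198 bp exon and ended 14 bp after it. The *Bsn* peak of 2147 bp began 50 bp before and ended 20 bp after an exon of 2077 bp. The *Chgb* peak of 1777 bp began 1 bp inside and ended 12 bp outside an exon of 1766 bp. The *Rtn4* peak of 2317 bp began 54 bp inside and ended 10 bp outside an exon of 2361 bp. The *Meg3* peak began 6 bp before its exon. *Ank2* encodes an ankyrin that links membrane proteins to the spectrin skeleton, *Bsn* encodes Bassoon of the presynaptic active zone, *Chgb* encodes a granin of secretory granules and *Rtn4* encodes the myelin-associated inhibitor Nogo.

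The wide peaks lay mostly in the 3′ UTRs of protein-coding genes. Of the 1255 members, 1253 could be placed on the reference, and the middle base of 876 of them, or 69.9% (exact 95% interval 67.3 to 72.4%), was in a 3′ UTR. A further 207 (16.5%) lay in coding sequence, 46 in an exon of a non-coding transcript, 4 in a 5′ UTR, 36 in an intron and 84 between genes. In all, 1133 (90.4%, 88.7 to 92.0%) lay in an exon, compared with 71.7% (71.3 to 72.0%) of the other 76366 placed peaks of the list and 73.6% (73.3 to 73.9%) of the 74214 among them that met both exclusions of the rule. The other peaks were placed in coding sequence in 39.4% and in 3′ UTRs in 22.6%. Intervals on shares are exact (Clopper-Pearson) and those on medians come from order statistics, both for counting error alone, and neighboring peaks of 1 library are not independent.

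Position moved with width over the 75467 placed peaks of the list that lay outside the window and overlapped no replicate 2 peak. An exon held 36.9% of peaks under 100 bp, 78.1% of those of 100 to 199 bp and 89.0% of those of 800 to 999 bp. It held 91.3% (89.1 to 93.3%) of those of 1000 to 1500 bp and 88.8% (79.7 to 94.7%) of the 80 peaks of at least 3000 bp, so the share differed little on either side of the limit of 1000 bp. The 3′ UTR share was 2.28% under 100 bp, 17.6% at 100 to 199 bp, 68.6% at 800 to 999 bp and 77.3% at 2000 to 3000 bp. The median fold over input was 48.1 at 100 to 199 bp, 144 at 800 to 999 bp and 298 at 3000 bp and above.

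**Figure D1:**
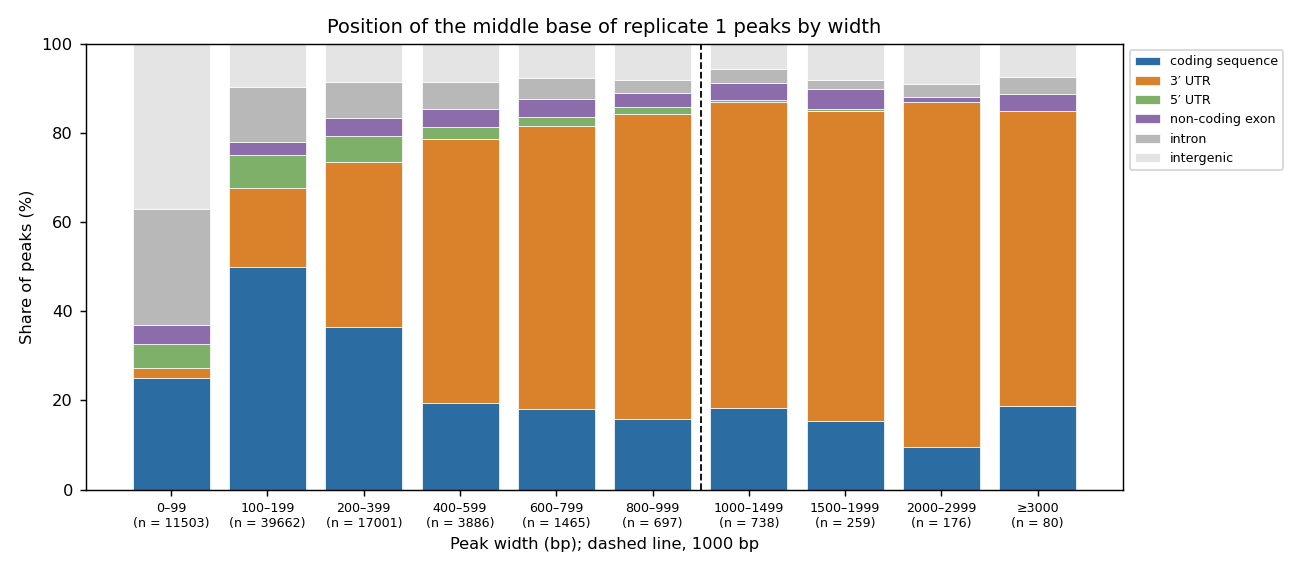
Share of the 75467 placed replicate 1 peaks outside the chromosome 7 window and without a replicate 2 peak (%, vertical axis) whose middle base lay in each kind of sequence, by peak width (bp, horizontal axis), with the number of peaks under each bar. The 3′ UTR part grows from 2.28% under 100 bp to 68.6% at 800 to 999 bp and stays between 66.2% and 77.3% to the right of the dashed line.

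The median width of the wide peaks was 1384 bp, with the middle 50% between 1162.5 and 1843 bp and a maximum of 11165 bp. The median fold over input, the authors' MACS value, was 195 with a range of 35.9 to 687, against 52.4 for the other peaks of the list. The median share of exonic bases was 99.6% (99.5 to 99.7%) in the wide peaks, whereas it was 16.3% (12.5 to 21.7%) and 19.5% (15.9 to 23.9%) in windows of the same width directly to their left and right. GC content separated the peaks from these windows by little, with a median of 46.2% (45.4 to 46.9%) in the peaks against 45.2% and 45.0%. By class, the median GC content was 51.0% in the wide coding peaks and 44.6% in the wide 3′ UTR peaks, close to 51.8% and 43.6% in the other peaks of the same class. The median ratio of observed to expected CpG was 0.258 (0.251 to 0.265), compared with 0.305 in the other peaks.

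An annotated exon overlapped 1168 of the wide peaks. The exon that matched each peak best had a median length of 2236 bp (2106 to 2388 bp), and 92.9% of them were at least 1000 bp long. Of the 350981 annotated exons 7.33% were, and their median length was 144 bp. The peaks were chosen to span at least 1000 bp, and the exon was picked for its overlap relative to the union of exon and peak. Both choices favor long exons, and the second favors matching edges, so the lengths and edge distances are descriptions. The best-matching exon was the last exon of a transcript for 1025 peaks (87.8%, 85.7 to 89.6%). The 3′ edge of the peak lay within 20 bp of the 3′ edge of the exon in 479 peaks (41.0%, 38.2 to 43.9%), and the 5′ edge lay within 20 bp of the exon's 5′ edge in 402 (34.4%, 31.7 to 37.2%). Both edges lay within 20 bp in 185 peaks and within 100 bp in 348 (29.8%). The median 3′ edge was 4 bp outside the exon (2 to 5 bp). Where the edges did not meet, peaks more often ended inside the exon than beyond it: the 5′ edge lay over 100 bp outside the exon in 56 peaks (4.79%) and the 3′ edge in 149 (12.8%). The pattern held for the 120 peaks on internal exons, of which 36.7% began and 40.8% ended within 20 bp of the exon edges.

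**Figure D2:**
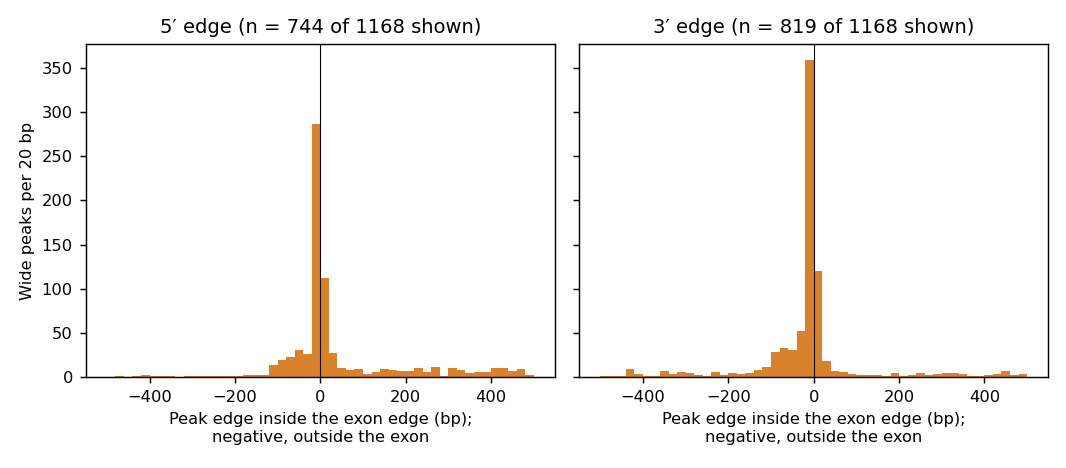
Distance of the 5′ and 3′ edges of wide peaks from the edges of the best-matching exon (bp, horizontal axes; negative values lie outside the exon), as the number of peaks per 20 bp. Distances of 500 bp and more are not drawn. The highest bins, just outside the exon edge, hold 286 and 359 peaks.

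Of the 12 widest members 11 had an exon, and in 4 of these both peak edges lay within 120 bp of the edges of that exon, those on *Slc1a2*, *Mtap1b*, *Srrm2* and *Ank2*. In the other 7, 1 edge did. *Slc1a2*, which encodes the main glutamate transporter of astrocytes, carried a 9472 bp peak at a fold of 298 over a last exon of 9322 bp, passing it by 66 bp at the 5′ and 84 bp at the 3′ edge. *Mtap1a* and *Mtap1b* (also called *Map1a* and *Map1b*) encode microtubule-associated proteins of neurons. The *Mtap1a* peak of 7685 bp covered 94.8% of an 8104 bp exon, and the *Mtap1b* peak of 6605 bp covered all of a 6490 bp exon. The peak on *Srrm2*, which encodes a splicing-associated protein, spanned 6605 bp over an exon of 6569 bp and missed its edges by 37 and 1 bp. On the transcriptional coregulator *Tcf20*, a 5785 bp peak lay over a 5772 bp exon, 4 and 9 bp beyond its edges. The peak on *Apc*, which encodes a scaffold of the Wnt pathway, spanned 7718 bp. It covered all of a 6604 bp exon, began 46 bp before it and continued 1068 bp past its 3′ edge.

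Other single wide peaks began well inside a last exon or ran far past it. The *Adcy1* peak (a neuronal adenylyl cyclase) of 7648 bp and the *Slc24a2* peak (a sodium, potassium and calcium exchanger) of 7010 bp began 1459 and 1465 bp inside their last exons and ended 13 and 5 bp beyond them. A second wide peak, of 1290 bp, lay in the remaining 5′ part of the *Slc24a2* exon. The *Prkcb* peak, on a gene for a protein kinase C, spanned 6904 bp at a fold of 442 and contained the whole 1000 bp annotated last exon, but continued far past its 3′ edge, and only 24.0% of its bases were exonic in this annotation.

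**Figure D3:**
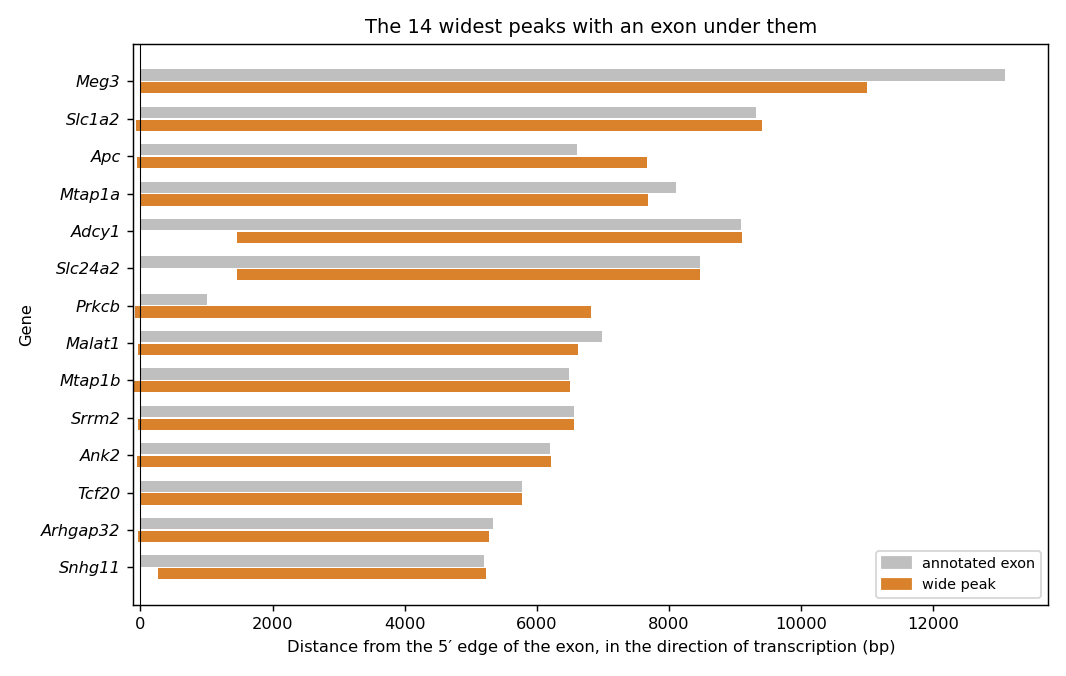
The 14 widest peaks with an exon under them (orange) and the best-matching annotated exon (grey), by distance from the exon's 5′ edge in the direction of transcription (bp, horizontal axis). Peaks and exons run side by side in genes such as *Slc1a2*, *Srrm2* and *Tcf20*, and the *Prkcb* peak of 6904 bp runs far past its 1000 bp exon.

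The highest folds over input lay on genes that are abundant in brain. The highest was 687, for a 1067 bp peak over the first exon of *Slc1a2* that began 412 bp upstream of it, and *Slc1a2* thus held both the widest exonic peak of a protein-coding gene and the highest fold. Among the other high values, *Calm3* (calmodulin) was at 564 and *Rtn3* (a reticulon of the endoplasmic reticulum) at 554. *Dnm1*, which encodes the dynamin of synaptic vesicle endocytosis, and *Slc17a7*, which encodes the vesicular glutamate transporter of cortical excitatory neurons, were both at 544. The pseudogenes *Gm15459* and *Gm8355* had the same fold of 544. Across members, width and fold had a Spearman's rho of 0.34 (n = 1255), a description over peaks of 1 library.

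Some genes held several wide peaks. In total 1060 genes had a wide peak over an exon, of which 167 had 2 or more and 32 had 3 or more. *Pclo* and *Bsn*, which encode the giant scaffolds Piccolo and Bassoon of the active zone, held 6 and 5. On *Bsn*, a 3893 bp peak covered the 3875 bp last exon within 13 and 5 bp of its edges, and 3 peaks of 3424, 1684 and 1371 bp shared the 6642 bp coding exon. *Plec*, which encodes the cytoskeletal linker plectin, also held 5. The *Bsn* peaks of 3424 and 1371 bp and the *Plec* peaks of 1059 and 1068 bp overlapped a peak of a *Snord116del* control list. *Tmod2* (a tropomodulin of actin filaments), *Ppp1r9a* (neurabin, an actin-binding synaptic protein) and *Mkl2* (a coactivator of serum response factor) held 4 each. Of the 26 genes that held 3, *Meg3*, *Slc24a2*, *Psd3* and *Hivep2* (a zinc finger transcription factor) had the largest summed width. Peaks on the same exon share a transcript and are not independent regions.

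Long non-coding RNAs were among the widest exonic members. *Meg3*, an imprinted and nuclear RNA, carried an 11007 bp peak over 84.1% of its 13087 bp last exon. *Malat1*, an abundant RNA of nuclear speckles, carried a 6660 bp peak over 94.9% of its 6982 bp exon. *Snhg11* had a peak of 4957 bp over a 5207 bp exon. It is known as a non-coding host gene of small nucleolar RNAs, but the annotation used here labels it protein-coding, so this peak is among the 876 in 3′ UTRs. *Miat* had peaks of 2558 and 1232 bp. Of the 12 nuclear long non-coding RNAs on a chosen list that were annotated, these 4 had a wide peak over an exon and 9 had a replicate 1 peak of any width. The best exon belonged to a pseudogene in 39 members. Because pseudogenes resemble their parent genes, the placement of reads on them is uncertain.

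No annotated exon lay under 85 members, yet 49 of these lay within 10 kb downstream of the end of a gene (35 genes), in the direction of transcription. The widest member of all was one of these, an 11165 bp peak with a fold of 410 at chr6:135666863-135678027, 1816 bp past the annotated end of *Grin2b*, which encodes a subunit of the NMDA receptor. *Grin2a*, for another NMDA receptor subunit, was followed by peaks of 2021 and 3198 bp at distances of 2039 and 5971 bp. The potassium channel gene *Kcnq3* was followed by 3 peaks of 2031, 2035 and 2052 bp at 760, 2929 and 5925 bp. *Kcna2* (a potassium channel), *Bmpr2* (a receptor of bone morphogenetic proteins) and *Tnr* (tenascin-R of the extracellular matrix) had wide peaks starting 214, 437 and 707 bp past their ends. Of the rest, 27 lay inside genes, 3 were nearest to a gene's upstream end and 6 were further than 10 kb downstream.

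Few members met a control peak. No wide peak overlapped 1 of WT NSC (0 of 1255, for which 3 counts would be 0.239% and the exact upper limit was 0.294%), 5 overlapped a peak of *Snord116del* *116HG* and 15 overlapped 1 of *Snord116del* NSC. In all 18 (1.43%, 0.852 to 2.26%) overlapped a control peak, compared with 0.715% (0.655 to 0.778%) of the 74580 narrower replicate 1 peaks outside the window that met no replicate 2 peak. The part of peak width in this difference was not tested. The 5 shared with *Snord116del* *116HG* lay on *Fbxl16*, *Kifc2*, *Prrc2b*, *Ankrd13b* and *Plec*. Among the 15 shared with *Snord116del* NSC were the *Bsn* peaks of 3424 and 1371 bp and a *Plec* peak of 1059 bp. Replicate 2 and the WT NSC and *Snord116del* *116HG* lists held few peaks of this width. Replicate 1 held 1265 among 78033 (1.62%), and the share in *Snord116del* NSC was near that. At least 1000 bp were spanned by 7 of the 11145 peaks in replicate 2 and 0 of the 3648 in WT NSC. In *Snord116del* they were 2 of 1280 with *116HG* oligos and 47 of 3418 (1.38%) with NSC oligos. The middle base lay in an exon for 1 of the 7 in replicate 2 and for 17 of the 47 (36.2%, 22.7 to 51.5%) in *Snord116del* NSC. Over peaks of all widths, this share was 72.0% in replicate 1 but 2.37% in replicate 2 and 3.05% in WT NSC, and the *Snord116del* lists had 12.4% with *116HG* oligos and 22.3% with NSC oligos.

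Few wide sites were shared by the replicates. Only 8 wide peaks of replicate 1 overlapped a replicate 2 peak and were left out by the rule, on *Ywhaz*, *Rrbp1*, *Tug1*, *Rims1*, *Gm13456*, *Ncan*, *Scn8a* and near *Pisd-ps1*, at folds of 35.2 to 313. Another 2 lay in the chromosome 7 window. A replicate 2 peak lay within 10 kb of 87 members (6.93%, 5.59 to 8.48%). Among the 74580 narrower replicate 1 peaks held to the same exclusions it was 7.93% (7.74 to 8.13%), and the intervals overlapped. The members are thus peaks of 1 library, and what set that library apart from replicate 2 was not tested. Both peak edges lay within 100 bp of the exon edges in 348 of the 1168 members with an exon (29.8%), and folds went with transcript level. Peak lists do not tell whether the reads came from genomic DNA or from RNA. Whether the replicate 1 library held fragments derived from RNA was not tested, and the folds, widths and exon shares given here apply to its reads whatever their source.

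Genes with a wide peak were more highly expressed in the cortex than other genes and had longer exons. Of the 1060 genes, 971 were in the RNA-seq table, and 951 had a mean of at least 1 FPKM over the 4 groups, 9.24% of the 10297 genes that did. Their median level was 10.6 FPKM (9.79 to 11.5) in WT at Zt +6 and 8.95 FPKM (7.83 to 9.71) in WT at Zt +16, compared with 3.17 and 2.90 FPKM over all 10297 genes. In *Snord116del* it was 24.1 FPKM (23.2 to 25.4) at Zt +6 and 12.4 FPKM (10.6 to 13.7) at Zt +16, compared with 5.63 and 4.00 FPKM. The highest fold over input of a gene's wide peaks went with its FPKM, with a Spearman's rho of 0.60 for WT at Zt +6 and 0.51 for WT at Zt +16, over 951 genes that share 1 ChIRP library. The median longest exon was 2684 bp in genes with a wide peak and 1500 bp in the others.

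Exon length and level together set apart the genes with a wide peak. Among genes whose longest exon was under 1 kb, a wide peak was found in 0.922% (0.619 to 1.32%), and among genes under 2 FPKM in WT at Zt +6 it was found in 0.615% (0.381 to 0.939%). Of the 68 genes with an exon of at least 5 kb and 5 to 10 FPKM, 70.6% (58.3 to 81.0%) had one, as did 72.2% (62.1 to 80.8%) of the 97 genes with a longest exon of 3 to 5 kb and 10 to 20 FPKM. The rule set a width of at least 1000 bp, so the low share among genes with short exons is in part a description of the rule.

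**Figure D4:**
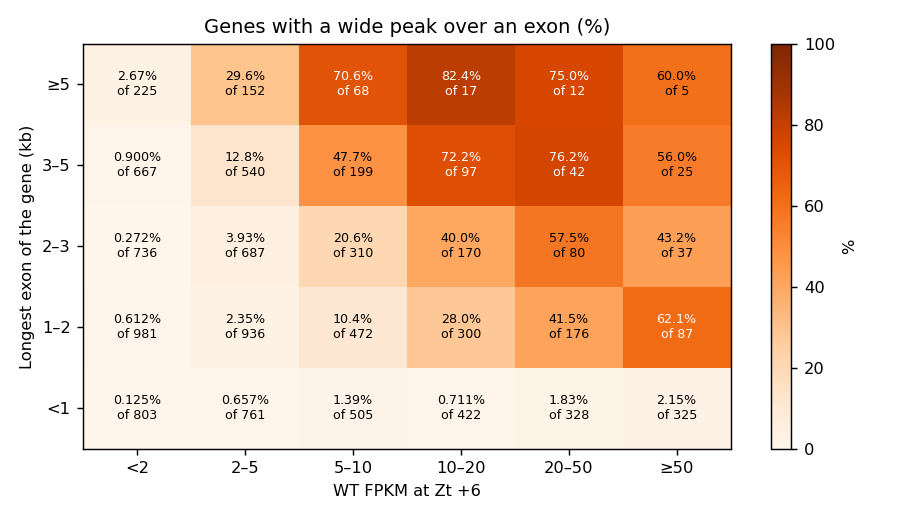
Share of genes with a wide peak over an exon (%, color and upper number in each cell; the lower number is the number of genes) by WT FPKM at Zt +6 (horizontal axis) and longest annotated exon (kb, vertical axis). The share is under 3% in every cell of the bottom row and the left column and reaches 82.4% of 17 genes at the top.

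By function, wide peaks were found on many genes of the synapse and the cytoskeleton. Over all 10297 genes at 1 FPKM or more, 9.24% had a wide peak, whereas the list shares count every annotated gene of a list, whatever its level. Of 20 large cytoskeletal genes, 16 (80.0%) had a wide peak over an exon, including *Mtap2* (*Map2*), *Mapt* (tau), *Ank3*, *Spnb2* and *Spnb3* (spectrins), *Macf1*, *Dst*, the neurofilaments *Nefl* and *Nefm* and the kinesins *Kif1a*, *Kif1b* and *Kif5a*. Of 20 presynaptic genes 13 (65.0%) had one, among them *Syn1* and *Syn2* (synapsins), *Stx1a* and *Snap25* (SNARE proteins), *Syt1* (a calcium sensor) and *Cplx1* and *Cplx2* (complexins). Of 20 postsynaptic genes 8 (40.0%) had one, *Shank1*, *Shank2*, *Shank3*, *Dlg2*, *Dlgap1*, *Camk2a*, *Camk2b* and *Baiap2*. All 20 genes of each of these 3 lists had a replicate 1 peak of some width over an exon, as did 12493 annotated genes in all.

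Other lists held fewer. Wide peaks lay on 2 of 17 (11.8%) genes for H3K4 methyltransferase complexes, *Mll1* and *Mll3*, which encode catalytic subunits. Other catalytic subunit genes of that list, such as *Mll2*, *Setd1a* and *Setd1b*, had none. Wide peaks also lay on 4 of 20 (20.0%) other chromatin regulators (*Crebbp*, *Chd3*, *Ncor1* and *Atrx*) and on 5 of 36 (13.9%) cadherins of the Pcdh family (*Pcdh1*, *Pcdh7*, *Pcdh9*, *Pcdh10* and *Pcdhgc5*). The share of the H3K4 list lay near the 9.24% of genes at 1 FPKM or more. Many Pcdh genes were below 1 FPKM, so the share of that list cannot be set against the 9.24%. None of 20 genes of mTOR and its regulators had one, although 17 of them had a narrower replicate 1 peak. Of 22 core clock genes 5 had one, the repressors *Cry2*, *Nr1d1* and *Bhlhe40* and the PAR bZIP factors *Tef* and *Hlf*. The 1309 bp peak counted for *Nr1d1* also overlapped *Thra*, which encodes a thyroid hormone receptor, and matched an 850 bp exon of *Thra* best. Among cell type markers, 6 of 8 neuronal, 2 of 6 astrocyte (*Slc1a2* and *Slc1a3*) and 4 of 6 oligodendrocyte genes (including *Mbp*, *Cnp* and *Mobp*) had a wide peak, whereas 0 of 6 microglial, 0 of 4 endothelial and 0 of 3 choroid plexus genes did. In WT at Zt +6 the summed level of the neuronal markers was 723 FPKM and that of the oligodendrocyte markers 445 FPKM, compared with 30.1 FPKM for microglia and 4.56 FPKM for endothelium. These shares are counts without a test, and the lists differ in exon length and level.

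*Snord116del* was compared with WT to ask whether transcript levels of these genes differed with the deletion. It removes the *Snord116* small nucleolar RNAs as well as *116HG*, so their effects cannot be told apart here. A gene was counted as different when its FPKM + 1 differed by at least 1.5-fold between the group values, with at least 1 FPKM in the higher group. At Zt +6, 720 of the 951 genes with a wide peak (75.7%) were higher in *Snord116del*, where 49.3% of all 10297 genes were, and 13 (1.37%) were lower, where 7.62% of all genes were. In either direction 733 (77.1%, 74.3 to 79.7%) differed, against 56.9% of all genes. With a pseudocount of 0.1 FPKM in place of 1, these shares were 78.4% and 65.3%. At Zt +16, 180 (18.9%) were higher, where 19.0% of all genes were, and 0 were lower, where 0.204% of all genes were. For either direction the background at Zt +16 was 19.2%. With the filter on low values, the share of genes with a wide peak that differed was thus above the background at Zt +6 and near it at Zt +16. Without the filter it was 75.7% of 971 against 29.4% of 23235 genes at Zt +6 and 18.5% against 8.63% at Zt +16. The rule still required 1 FPKM in the higher group, so genes under that level entered the total but could not pass. At Zt +16, 180 genes with a wide peak passed either way, and over all genes 1980 passed with the filter and 2006 without it. The lower background at Zt +16 thus came from the larger total.

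The median log2 change of FPKM + 1 in genes with a wide peak was 1.15 at Zt +6 and 0.41 at Zt +16, compared with 0.57 and 0.35 over all tested genes. Much of this was common to the whole table. Scaling the 4 groups to the same median level lowered the typical change by 0.67 at Zt +6 and by 0.36 at Zt +16. Relative to that scale, the median change of genes with a wide peak was 0.38 at Zt +6 and 0.01 at Zt +16, against -0.06 and 0.01 over all genes. Then 345 of the 951 (36.3%) were higher and 112 (11.8%) were lower at Zt +6, compared with 15.0% and 24.4% of all genes, and 4 were higher and 2 lower at Zt +16.

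**Figure D5:**
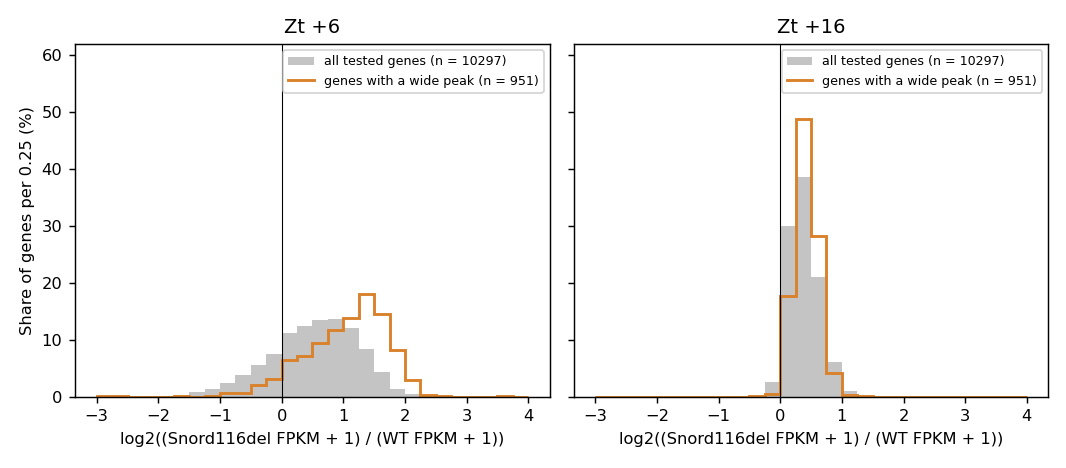
Distribution of the log2 change of FPKM + 1 between *Snord116del* and WT (horizontal axis) at Zt +6 and Zt +16, as the share of genes per 0.25 (%, vertical axis), for genes with a wide peak (line) and all tested genes (grey). At Zt +6 the medians are 1.15 and 0.57, and at Zt +16 they are 0.41 and 0.35.

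The change at Zt +6 also moved with exon length and with level. Among genes whose longest exon was at least 5 kb, 121 of 125 genes with a wide peak (96.8%) and 304 of 354 genes without one (85.9%) were higher in *Snord116del*. With a longest exon of 1 to 2 kb these shares were 58.7% of 288 and 45.2% of 2664 genes. Between 20 and 50 FPKM in WT, 53.0% of 166 genes with a wide peak and 9.53% of 472 genes without one were higher. The bins of FPKM use the WT value that also enters the change. At Zt +6, genes with a wide peak had the higher share in all 5 bins of exon length and all 6 bins of FPKM. At Zt +16 they had the higher share in all 5 bins of exon length but the lower share in all 6 bins of FPKM, with 29.5% against 51.5% between 20 and 50 FPKM. Whether the peak, exon length or level goes with the change was not tested.

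The genes under the widest peaks had their highest level in *Snord116del* at Zt +6. *Meg3* was at 67.4 FPKM in WT and 228 FPKM in *Snord116del* at Zt +6 and at 32.0 and 44.1 FPKM at Zt +16, log2 changes of 1.74 and 0.45. *Slc1a2* was at 59.2 and 189 FPKM at Zt +6 and at 31.5 and 47.8 FPKM at Zt +16, log2 changes of 1.65 and 0.59. *Malat1* was at 102 and 433 FPKM at Zt +6 and at 10.6 and 21.2 FPKM at Zt +16, log2 changes of 2.07 and 0.93. As a ratio, the WT values of *Malat1* at the 2 times lay further apart than those of the genotypes at either time. *Ank2* was at 14.7 and 55.8 FPKM at Zt +6 and at 4.61 and 5.23 FPKM at Zt +16, log2 changes of 1.85 and 0.15. *Srrm2* was at 20.9 and 61.1 FPKM at Zt +6 and at 12.1 and 16.6 FPKM at Zt +16, and *Mtap1b* was at 41.5 and 117 FPKM at Zt +6 and at 22.5 and 33.9 FPKM at Zt +16. All 11 genes with the best-matching exon under the 12 widest peaks passed the fold rule as higher at Zt +6, and 3 of them did at Zt +16. Of all genes with a wide peak 75.7% were higher at Zt +6 and 18.9% at Zt +16. Over all tested genes these shares were 49.3% and 19.0%. On the same-median scale the log2 changes of the 11 genes at Zt +6 were 0.37 to 1.25. The lowest values were 0.37, 0.49 and 0.55 for *Mtap1a*, *Prkcb* and *Adcy1*.

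Some genes with the highest folds over input differed less between genotypes at Zt +6 than those under the widest peaks, but not at Zt +16. *Calm3* was at 134 FPKM in WT and 166 FPKM in *Snord116del* at Zt +6 and at 94.3 and 166 FPKM at Zt +16. *Dnm1* was at 87.7 and 113 FPKM at Zt +6 and at 95.2 and 137 FPKM at Zt +16. *Slc17a7* was at 105 and 127 FPKM at Zt +6 and at 60.3 and 120 FPKM at Zt +16. None of the 3 passed the fold rule at Zt +6, whereas *Calm3* and *Slc17a7* passed it at Zt +16 with log2 changes of 0.81 and 0.98. At Zt +6, on the same-median scale, all 3 were lower in *Snord116del*, with log2 changes of -0.46 to -0.55.

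Genes with several wide peaks were mostly higher at Zt +6 as well. *Pclo* was at 7.89 FPKM in WT and 28.2 FPKM in *Snord116del* at Zt +6 and at 2.42 and 2.85 FPKM at Zt +16. *Bsn* was at 16.5 and 47.1 FPKM at Zt +6 and at 10.5 and 13.1 FPKM at Zt +16. *Hivep2* was at 7.06 and 27.5 FPKM at Zt +6 and at 3.17 and 4.29 FPKM at Zt +16. Of the 32 genes with 3 or more wide peaks, 31 passed the fold rule as higher at Zt +6, with log2 changes of 0.72 to 2.07. *Celf2*, listed at 0 FPKM in *Snord116del*, passed it as lower. Of all genes with a wide peak 75.7% were higher at Zt +6, and of all tested genes 49.3% were. Of the 32 genes *Slc24a2* alone passed the rule at Zt +16, as higher, where 18.9% of all genes with a wide peak and 19.0% of all tested genes were higher.

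Across the lists, no gene with a wide peak passed the fold rule as lower at either time. Among all 951 genes with a wide peak 13 (1.37%) were lower at Zt +6 and 0 at Zt +16, so a count of 0 lies near that share. The counts of higher genes are to be read beside the 49.3% of all tested genes and the 75.7% of genes with a wide peak that were higher at Zt +6. At Zt +6, 16 of 16 cytoskeletal genes with a wide peak were higher, with a median log2 change of 1.35 (0.54 on the same-median scale), and 7 of 8 postsynaptic genes were, with a median of 1.53 (0.74). Of the 13 presynaptic genes 6 were higher, with a median of 0.43 that turned to -0.39 on the same-median scale. *Snap25* was at 481 FPKM in WT and 590 FPKM in *Snord116del* at Zt +6, and *Stx1a* was at 51.9 and 37.0 FPKM, and neither passed the fold rule. Both H3K4 methyltransferase genes, all 4 other chromatin regulators and all 5 Pcdh genes were higher, with medians of 1.67, 1.52 and 1.67, in lists too small to set apart from genes with a wide peak in general. The clock repressor *Nr1d1* was at 9.79 and 30.8 FPKM at Zt +6, whereas *Cry2* was at 10.1 and 10.9 FPKM.

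The 13 genes with a wide peak that were lower in *Snord116del* at Zt +6 included *Tuba1b* (an alpha tubulin), at 228 FPKM in WT and 70.4 FPKM in *Snord116del*, and *Ubb* (polyubiquitin), at 815 and 469 FPKM. They also included *Dynll2* (a dynein light chain), at 207 and 99.6 FPKM, and *Celf2* (a splicing regulator), at 9.65 FPKM in WT and listed at 0 in *Snord116del*. These 4 were chosen after their values were seen.

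Marker levels of other cell types moved between the groups as well. From WT to *Snord116del* at Zt +6, the summed FPKM went from 723 to 1059 for 8 neuronal markers, from 92.5 to 287 for 6 astrocyte markers, from 445 to 703 for 6 oligodendrocyte markers, from 30.1 to 57.5 for 6 microglial markers and from 4.56 to 17.1 for 4 endothelial markers. For 3 choroid plexus markers it went from 202 to 183, and at Zt +16 it was 25.3 in WT and 30.0 in *Snord116del*. The choroid plexus lies outside the cortex, and *Ttr* held nearly all of its sum, with *Folr1* and *Kl* under 1 FPKM in every group. *Snap25* and *Mbp* held most of the neuronal and oligodendrocyte sums. At Zt +16 the sums of all the other cell types were also higher in *Snord116del*. Over all tested genes the median log2 change was 0.57 at Zt +6 and 0.35 at Zt +16. The part of these levels in the changes described was not tested, and in bulk tissue RNA a different number of cells of a type and a different amount of RNA per cell cannot be told apart.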

How the data were processed

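ChIRP-seq peak lists of 5 brain libraries and a cortex RNA-seq table were used. For the peaks, the authors aligned reads with Bowtie2 2.0.0 to mm9, called peaks with MACS 1.4.2 in each library against WT input, and kept those with a false discovery rate under 5% and over 20-fold enrichment. Each peak's enrichment was deposited as a ratio over input, except that replicate 2 has positions only. The RNA-seq values are FPKM, 1 per gene and group, which the authors made with TopHat2 2.0.5 and Cuffdiff 2.0.2. Columns of log2 changes and q-values in the table are the authors' own comparisons and were not used. The labels of both *Snord116del* mice and 1 of the 3 WT mice at Zt +6 name an earlier version of this table.

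Peaks were placed by their middle base with GENCODE annotation of the mm9 assembly (NCBIM37), with coding sequence taken before UTRs, other exons and introns. The best exon had the largest overlap relative to the union of exon and peak. Genes were matched by symbol (21853 of 23235 in the RNA-seq table). A wide peak belonged to a gene when it overlapped an exon of it. Gene levels were compared as log2(FPKM + 1), which understates the change of low genes, for genes that averaged 1 FPKM or more over the groups.

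The genes named were those with an exon under the 12 widest members or the 8 members with the highest fold, the 10 with the most wide peaks (ties at 3 by summed width), and members of the gene lists with a wide peak. Some of these genes are not reported here. Genes downstream of which a peak lay, genes shared with other peak lists, genes at printed exon edges or passed over for them, and *Tcf20* and *Arhgap32*, were named after their values were seen. The members and the lists were chosen with earlier results of these data known. Steps were tested on simulated peaks and FPKM values. Analyses used Python 3.11.15, numpy 2.4.6, pandas 2.3.3, scipy 1.17.1, pysam 0.24.0 and matplotlib 3.10.9. Alternatives covered the width, replicate 2, merging, the rules for exons, controls and genes, and the filter, pseudocount, scale and fold.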

Additional observations from a re-analysis of the deposited data

How the results depend on the processing

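Of 63 values under alternative settings, 38 stayed within the interval or the 1.5-fold range of the reported one and 25 moved. The number of wide peaks was 1954, 515 and 256 with limits of 800, 1500 and 2000 bp, and 2129 after peaks with gaps of at most 100 bp were merged. The share in an exon was 88.3% at 2000 bp, 93.2% with any base in an exon and 87.0% with protein-coding genes only. The share overlapping a control peak was 0.781% at 2000 bp, 0% when at least 50% of the wide peak had to be covered, 2.79% within 2 kb and 6.61% within 10 kb. Median GC content was 45.1% at 1500 and at 2000 bp. The median WT level at Zt +6 was 9.63, 12.4 and 12.8 FPKM for genes with peaks of at least 800, 1500 and 2000 bp. At Zt +6 the genes that passed the fold rule were 85.1% and 89.4% with limits of 1500 and 2000 bp, 48.1% on the same-median scale (all genes, 39.5%) and 58.8% at 2-fold (29.7%). At Zt +16 they were 15.9% and 12.3% at 1500 and 2000 bp, 25.1% with a pseudocount of 0.1 FPKM (all genes, 30.5%), 0.631% on the same-median scale (1.74%) and 0.526% at 2-fold (1.39%). Without replicate 2 as a condition no value moved. The causes were not tested.

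No paired analysis was possible because the RNA-seq table has 1 value for each group and no result comes from a test across mice. No mouse was left out for the same reason, and replicate 1 was kept throughout since the members are its peaks. The number, width and fold of peaks depend on the read depth of a library, which differed between libraries according to the methods. The lists have no read counts, so depth could not be corrected for, and replicate 2 has no fold over input.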
